A study of Homo sapiens with 9 samples.

Results

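The regions described here are stretches of open chromatin that had a FAIRE peak in the lists labelled NS DMSO, SW DMSO and NS rottlerin and no peak in the list labelled SW rottlerin, which is the longest of the 4 lists. All peaks on the autosomes, X and Y were merged where they overlapped or touched, which gave 40703 regions, and the members were chosen by which lists had a peak in each region. Of 11179 regions with a peak in the 3 former lists, 338 (3.02%) had none in the SW rottlerin list, and these 338 are the members. The same count made for each of the other lists gave 1679 of 12520 regions missing only in the SW DMSO list (13.4%) and 857 of 11698 missing only in the NS rottlerin list (7.33%), while 10841 regions had a peak in all 4 lists. These shares moved with the lengths of the lists. With the 18977 highest-scoring peaks of each list, chosen as a comparison after seeing the data, 849 regions were missing only in the SW rottlerin list (8.24%, 7.72–8.78), and the shares missing only in the SW DMSO and NS rottlerin lists were 8.72% and 7.61%. The calls of peaks chose the members, so their scores and fold enrichments in these lists are given as a description.

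The cells were Jurkat, clone E6-1, a human T cell leukaemia line, so all lists come from 1 cell line. NS cells were not stimulated, and SW cells received PMA and ionomycin for 4 h by the labels (the methods give a shorter time), were washed and then rested for 1 day. By the labels, both kinds of cells were treated beforehand with DMSO, the vehicle, or for 1 h with 15 µM rottlerin. Rottlerin is a plant compound used as an inhibitor of protein kinase C. Each label has 1 library, and of 9 samples 4 had a peak list, the other 5 being not analysed here. The values start from the peaks that the authors called with MACS2 against a total input library, so a region without a peak is one that was not called at the depth of that library, and the depth is unknown from a peak list. With no replicates there is no test between lists, and the intervals in brackets are 95% Wilson intervals that cover counting error only.

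The label of a list may not be the state of its cells. Merging the peaks of all contigs gave 40731 regions. The methods of the study describe a merged set of that same size, made from the 4 DMSO samples alone, with 28 regions then removed. Those samples are NS, ST (stimulated), SW and RS (rested, then stimulated again). The merged lists here also had 28 regions on contigs other than the autosomes, X and Y. By this match the 4 lists would be the DMSO samples, and none would come from cells treated with rottlerin. The labels say otherwise, and which list belongs to which state of cells was not settled. The peaks of the SW rottlerin file also carry names spelled unlike those of the other lists. A missing peak is assigned below to a list and to no treatment. The lists held 18977 peaks (NS DMSO), 20132 (SW DMSO), 23835 (NS rottlerin) and 30409 (SW rottlerin), with median scores between 53 and 57. Promoter peaks were found at 5 of 8 T cell marker genes in the NS DMSO list (CD3D, CD3E, CD3G, CD247 and LCK) and at 4 to 5 in the others, and at none of the B cell, myeloid or erythroid markers in any list. At 26 immediate early genes, promoter peaks numbered 18, 21, 18 and 24 in the order of the lists given above. The SW rottlerin list, the longest, was also highest at 33 leukaemia and T lineage factors (21, 17, 20 and 26). It was highest too at 31 cytokines, receptors and surface proteins (6, 9, 7 and 14), and tied at 22 apoptosis and cell cycle genes (14, 17, 18 and 18). Shares over all coding promoters are not given, so these counts assign no state to the cells.

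FAIRE enriches DNA that is loosely held by histones, as found at active promoters and at enhancers, which are short elements that can lie far from the gene they act on. Enhancers of T cells are bound by families such as RUNX, ETS, GATA and the E proteins, whose short recognition sequences recur in open chromatin of this lineage. Stimulation with PMA and ionomycin activates protein kinase C and calcium signalling, and through them the AP1, NFκB and NFAT factors, which open further sites.

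The sequences of 4 members are shown as examples of a strongly called distal member, a promoter member and a member near a T cell gene. They are the central 300 bp of 2 of the 4 members with the highest lowest score over the lists that had them (WWOX and F3), of the promoter member with the highest lowest score (CREBZF, shortened to the part outside the untranslated region) and of the highest such member near a gene of the T cell lists (CXCR5). All are reference sequence of GRCh37 on the plus strand, with capitals at each match to a searched motif. The member in an intron of WWOX is shown over chr16:78423167-78423466, and its capitals mark RUNX, GATA, NFAT and CATCTG matches. The member upstream of F3 lies over chr1:95068056-95068355. Those of CREBZF and CXCR5 lie over chr11:85376174-85376365 and chr11:118763206-118763505.
WWOX: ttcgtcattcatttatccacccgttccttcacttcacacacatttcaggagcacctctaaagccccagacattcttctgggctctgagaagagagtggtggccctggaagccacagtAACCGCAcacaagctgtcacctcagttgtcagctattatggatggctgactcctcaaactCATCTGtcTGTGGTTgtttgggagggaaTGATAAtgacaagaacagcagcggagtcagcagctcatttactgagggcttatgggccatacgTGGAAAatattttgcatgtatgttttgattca
F3: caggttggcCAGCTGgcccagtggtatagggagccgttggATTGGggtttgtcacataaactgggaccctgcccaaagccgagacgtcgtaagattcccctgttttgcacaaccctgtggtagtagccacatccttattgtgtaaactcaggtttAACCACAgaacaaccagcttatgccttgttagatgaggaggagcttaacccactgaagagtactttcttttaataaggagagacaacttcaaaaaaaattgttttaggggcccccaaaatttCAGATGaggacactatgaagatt
CREBZF: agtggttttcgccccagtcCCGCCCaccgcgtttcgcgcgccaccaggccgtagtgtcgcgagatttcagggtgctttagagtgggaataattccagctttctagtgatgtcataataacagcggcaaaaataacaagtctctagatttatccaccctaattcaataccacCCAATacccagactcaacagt
CXCR5: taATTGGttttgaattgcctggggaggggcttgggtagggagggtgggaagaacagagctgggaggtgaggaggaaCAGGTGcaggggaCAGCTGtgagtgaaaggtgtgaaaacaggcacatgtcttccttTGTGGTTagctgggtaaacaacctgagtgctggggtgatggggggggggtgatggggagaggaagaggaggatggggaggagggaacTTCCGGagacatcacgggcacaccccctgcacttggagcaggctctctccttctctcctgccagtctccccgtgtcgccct
RUNX words and E-box words were present in the WWOX, F3 and CXCR5 sequences. The members named by FBXO16 and SLC7A6, also among the highest but not shown, held E-box words and no RUNX word. The CREBZF sequence, from a promoter, had a GGGCGG match and a CCAAT match and no E-box.

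The score of a peak is 10 times the −log10 of its q-value, so a score of 20 stands for a q-value of 0.01. In the NS DMSO list the members had scores from 13 to 183 with a median of 48, where the whole list had a median of 57. In the SW DMSO list they ranged from 12 to 181 with a median of 35 against 54 for the whole list. In the NS rottlerin list they ranged from 11 to 135 with a median of 39.5 against 57. Members above the median of the whole list numbered 118, 52 and 72 of 338 in the same order. Most members thus scored at or below the list median in each list that had them, most often in the SW DMSO list. In the NS DMSO list their median fold enrichment was 4.00, against 4.05 for the whole list. Regions in all 4 lists had medians of 82, 79 and 92 in these lists. A score of at least 50 in all 3 lists was reached by 30 members (8.88%), and by 6655 (61.4%) of the regions in all 4 lists.

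**Figure D1:**
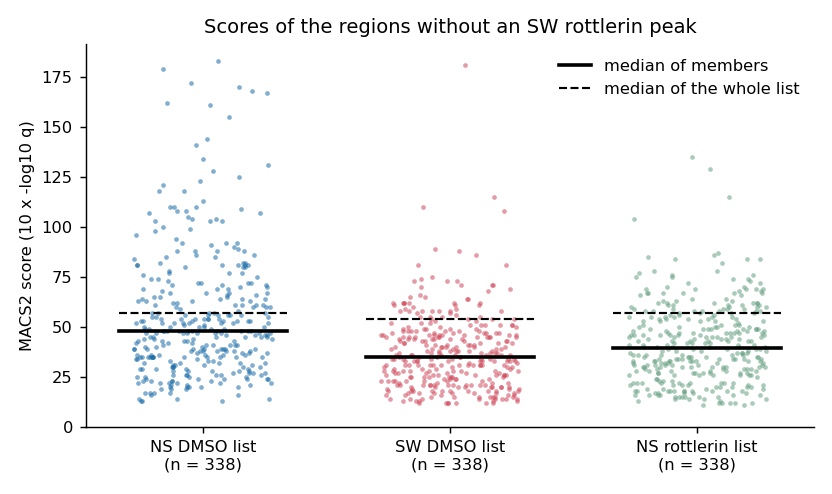
MACS2 score (vertical axis, 10 times the −log10 of the q-value) of each of the 338 members in the NS DMSO, SW DMSO and NS rottlerin lists, 1 point per region, with the median of the members (solid line) and of the whole list (dashed line). The members' medians of 48, 35 and 39.5 lie under the list medians of 57, 54 and 57, and scores over 100 number 34, 4 and 4.

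The share of regions that lacked an SW rottlerin peak was lower at a higher lowest score over the other lists. Of 584 regions with a lowest score of 10 to 19, 88 were members (15.1%, 12.4–18.2). The share was 3.39% (45 of 1328) at 40 to 49 and 0.256% (2 of 781) at 70 to 79, the last being the WWOX and FBXO16 members. No member was found among the 3828 regions with a lowest score of 80 or more, which allows a share of up to 0.100%. Just outside the rule were regions whose SW rottlerin peak had the lowest score. They were named by BUB3, MTHFSD and CEP41, all with an SW rottlerin score of 11. Their scores in the NS DMSO, SW DMSO and NS rottlerin lists were 58, 53 and 46 for BUB3, 71, 45 and 23 for MTHFSD, and 36, 22 and 19 for CEP41. These values lie within the range of the members. Of the regions in all 4 lists, 115 (1.06%) had an SW rottlerin score of at most 20. Just inside the rule were the members nearest to an SW rottlerin peak, which lay 324 bp (BNIP2), 436 bp (PTPRC) and 604 bp (ZMAT3) from one.

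**Figure D2:**
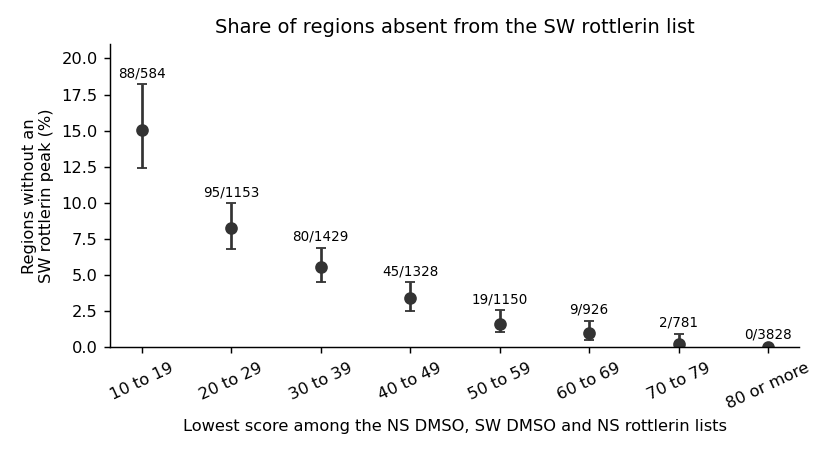
Share of regions without an SW rottlerin peak (vertical axis, %, with 95% Wilson interval) among the 11179 regions with a peak in the other 3 lists, by the lowest score over those lists (horizontal axis), with counts above each point. The share falls from 15.1% at scores of 10 to 19 to 0.256% at 70 to 79 and to 0 of 3828 at 80 or more.

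The distance from a member to the nearest SW rottlerin peak ranged from 324 bp to 2777764 bp with a median of 13858 bp. Of the members, 15 (4.44%, 2.71–7.19) lay within 1 kb of such a peak and 130 (38.5%) within 10 kb. Regions missing only in the SW DMSO list lay a median of 24663 bp from a peak of that list, which is shorter than the SW rottlerin list, and regions missing only in the NS rottlerin list lay 19252 bp from a peak of theirs. A region called in the SW rottlerin list alone was found within 50 kb of 103 members (30.5%, 25.8–35.6), and of 39.1% and 41.4% of the regions missing only in the SW DMSO or NS rottlerin list. Of regions in all 4 lists 39.0% had such a neighbour. A region in all 4 lists lay within 50 kb of 184 members (54.4%, 49.1–59.7). The shares for regions missing only in the SW DMSO or NS rottlerin list, 51.6% and 53.9%, were within counting error of this.

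In the lists that held them, the members had their highest score more often in NS DMSO than in the others. The NS DMSO score was above both of the other scores in 191 of 338 members (56.5%), and in 29.2% of the regions in all 4 lists. The ratio of the SW DMSO to the NS DMSO fold enrichment had a median of 0.915 over the members and of 0.983 over all 11179 regions of the 3 lists. It was at most 1/1.5 in 27 members (7.99%, 5.55–11.4), where 2.02% of all 11179 regions were this low. It was at least 1.5 in 0 members, where 1.64% of all regions were this high. The ratio of NS rottlerin to NS DMSO had a median of 0.921 over the members and of 1.04 over all regions. It was at most 1/1.5 in 25 members (7.40%, 5.06–10.7) against 1.42%, and at least 1.5 in 1 member against 3.08%. That member, named after its values were seen, lies in an intron of PSMA1, a proteasome subunit gene, with scores of 27, 54 and 86 in the NS DMSO, SW DMSO and NS rottlerin lists. Both ratios have the NS DMSO library as their base, and the lists are those the rule used, so the ratios stand as descriptions.

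Scores were also set side by side at like NS DMSO scores. Among regions with an NS DMSO score of 60 to below 100, 81 members had median scores of 72, 43 and 49 in the NS DMSO, SW DMSO and NS rottlerin lists. In the same range 3330 regions in all 4 lists had medians of 78, 71 and 85. At an NS DMSO score of 100 or more, 35 members had medians of 118, 38 and 47, and 4064 regions in all 4 lists had 142, 129 and 144. No member had a score of 80 or more in all 3 lists, so a member at or above that in NS DMSO was below it in at least 1 other list. These lists are those the rule used, so the medians are a description, and a change between lists was not tested. Below an NS DMSO score of 40, 123 members had medians of 29, 27 and 33, and 1514 regions in all 4 lists had 30, 42 and 51.

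The 3 members with the highest NS DMSO scores, named after their values were seen, lie in introns and had lower scores in both other lists. A member in an intron of ATP2A3, which encodes a calcium pump of the endoplasmic reticulum, had scores of 179, 26 and 14 in the NS DMSO, SW DMSO and NS rottlerin lists. One in an intron of NEK10, a kinase gene, had the highest NS DMSO score of all members, 183, with 37 and 36 in the other lists. One in an intron of CCND3, the gene of cyclin D3, a driver of entry into S phase, had 172, 51 and 12. At these 3 sites the fold enrichment was 5.89, 6.41 and 5.504 in NS DMSO, and the nearest SW rottlerin peak lay 1.55, 13.4 and 2.12 kb away. Other members, also named after their values were seen, went against this pattern. Near TMEM239 the scores were 170, 181 and 56, and in a shared intron of DDX4 and SLC38A9 they were 96, 115 and 60, so that SW DMSO was highest. Near LMX1A and BCAR1 the NS DMSO and SW DMSO scores were 110 and 110, and 104 and 108. Near TNK2 the scores were 81, 12 and 135, with NS rottlerin highest and SW DMSO near 10, the lowest score in that list. The remaining members over 100 in NS rottlerin were named by COL2A1 (104), CD300LD (115) and ENSG00000249209 (129), with SW DMSO scores of 34, 45 and 41.

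The 10 members with the highest lowest score over the 3 lists were those called most firmly in every list that had them. The highest lies at chr16:78423148-78423485 in an intron of WWOX, an oxidoreductase and tumour suppressor gene that spans a fragile site, 289.7 kb downstream of the TSS. Its scores were 77 in NS DMSO, 81 in SW DMSO and 72 in NS rottlerin, and the nearest SW rottlerin peak lay 195.9 kb away. The 3 scores lay close together, as did the fold enrichments of 5.05, 5.47 and 5.18. WWOX held another member 211.6 kb from its TSS, with scores of 45, 26 and 26. The member in an intron of FBXO16, an F-box protein gene, had 167, 71 and 74, and the one in an intron of PLA2G15, 7.09 kb upstream of the amino acid transporter gene SLC7A6, had 131, 71 and 69. In both, NS DMSO was far above the other lists. The member 60.9 kb upstream of F3, which encodes tissue factor, the starter of blood coagulation, had 81, 65 and 87. CXCR5, the receptor for CXCL13 that guides lymphocytes to B cell follicles, held a member at chr11:118763188-118763524 in an intron, 8.76 kb downstream of the TSS, with 63, 62 and 69. This was the most even of the 10 members, and its sequence above held ETS, RUNX, CACCTG and CAGCTG words. The remaining members of the 10 were those of CREBZF (below), HAS3 (80, 64 and 70, in an intron of TANGO6), DGLUCY (78, 62 and 67), GCNT3 (92, 73 and 61, in the 3′UTR of FAM81A) and MARK2 (100, 61 and 62). SW DMSO had the lowest score in 7 of the 10, and NS rottlerin in the members of WWOX, SLC7A6 and GCNT3.

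**Figure D3:**
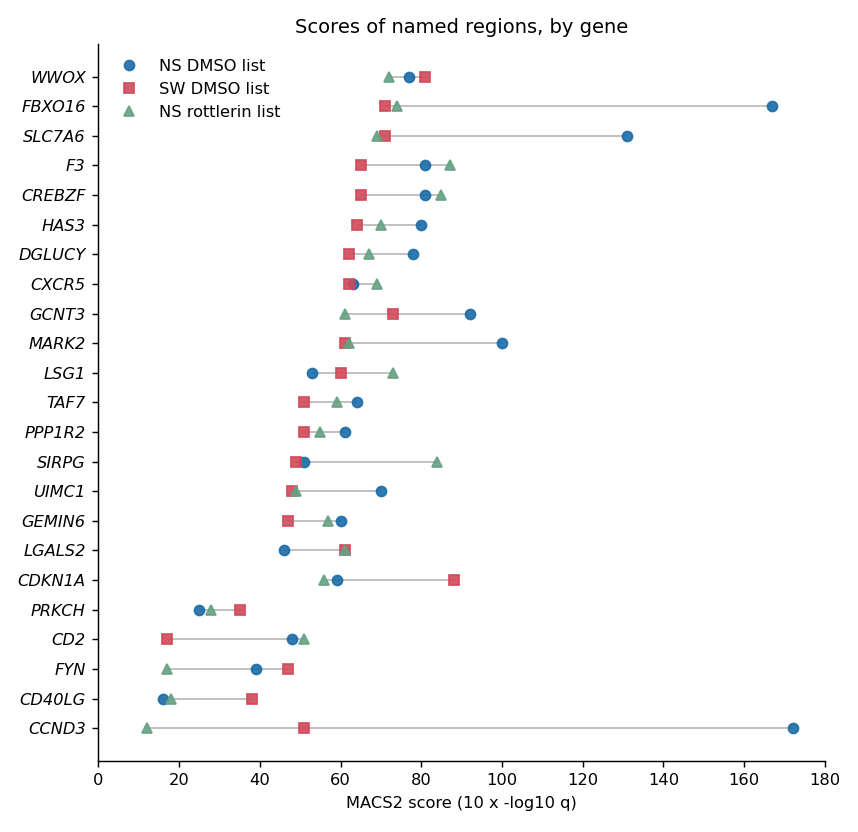
MACS2 scores (horizontal axis, 10 times the −log10 of the q-value) of the named members in the NS DMSO (circles), SW DMSO (squares) and NS rottlerin (triangles) lists, 1 line per region; the regions from CDKN1A down are named by the gene on a fixed list, the others by the nearest coding gene. At CCND3 the scores spread from 12 to 172, at CXCR5 from 62 to 69.

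Promoters were few among the members. The mid-point of 50 members (14.8%, 11.4–19.0) lay within 1 kb of the TSS of a coding gene, against 24.3% of all merged regions, 54.6% of the regions in all 4 lists, 21.7% of those missing only in SW DMSO and 19.1% of those missing only in NS rottlerin. Of these 50, 46% were CpG-island-like (over 50% GC and an observed to expected CpG ratio over 0.6 in the central 300 bp), and their median scores of 47.5, 36.5 and 43 lay near those of the 288 distal members (48, 35 and 39). Regions of the NS DMSO list alone had 6.46% within 1 kb of a coding TSS, so a low share was not particular to the members. With the same number of highest-scoring peaks in every list, the members' share was 21.3%, so it moved with the peaks used. Shares of the other sets are not given for that setting. The promoter member with the highest lowest score covers chr11:85376110-85376322, 43 bp upstream of a TSS of CREBZF, a bZIP factor gene, with scores of 81, 65 and 85. An SW rottlerin peak lay 662 bp from it, so the CREBZF locus was not without one. TAF7, a subunit of the general factor TFIID, had a member in its 5′UTR with 64, 51 and 59 and no SW rottlerin peak within 174.6 kb. LSG1, a GTPase of ribosome maturation, had 53, 60 and 73, and PPP1R2, an inhibitor of protein phosphatase 1, had 61, 51 and 55. SIRPG, a T cell surface protein that binds CD47, had 51, 49 and 84, the NS rottlerin score being the highest. The members at UIMC1 (70, 48 and 49), GEMIN6 (60, 47 and 57) and LGALS2 (46, 61 and 61) complete the 8 named promoters. SW DMSO was lowest at 6 of the 8, and NS DMSO at LSG1 and LGALS2.

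Most members lay in introns. Introns held 236 members (69.8%, 64.7–74.5), against 55.8% of all merged regions, 42.2% of regions in all 4 lists, 57.7% of those missing only in SW DMSO and 56.5% of those missing only in NS rottlerin. Intergenic sequence held 37 members (10.9%, 8.05–14.7) against 14.2% of all merged regions. The sum was 80.8% (76.2–84.6), against 70.01% of all merged regions and 49.9% of regions in all 4 lists. It was 71.77% and 71.65% of regions missing only in SW DMSO or NS rottlerin. Regions of the NS DMSO list alone also had a sum of 80.8%, with 62.5% in introns, so the sum was not particular to the members. With the same number of highest-scoring peaks in every list, the members' sum was 72.2%. The share in introns stayed higher when promoters were set aside. Of the 288 members over 1 kb from a coding TSS, 73.6% (68.2–78.4) lay in introns, against 63.3% of all such regions and 61.4% of those in all 4 lists. From the nearest coding TSS the members lay a median of 18374 bp away, against 14289 bp for all merged regions and 353 bp for regions in all 4 lists. The median width was 317 bp (179 to 1662 bp), against 294 bp for all merged regions, 445 bp for regions in all 4 lists, and 328 and 322 bp for those missing only in SW DMSO or NS rottlerin.

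**Figure D4:**
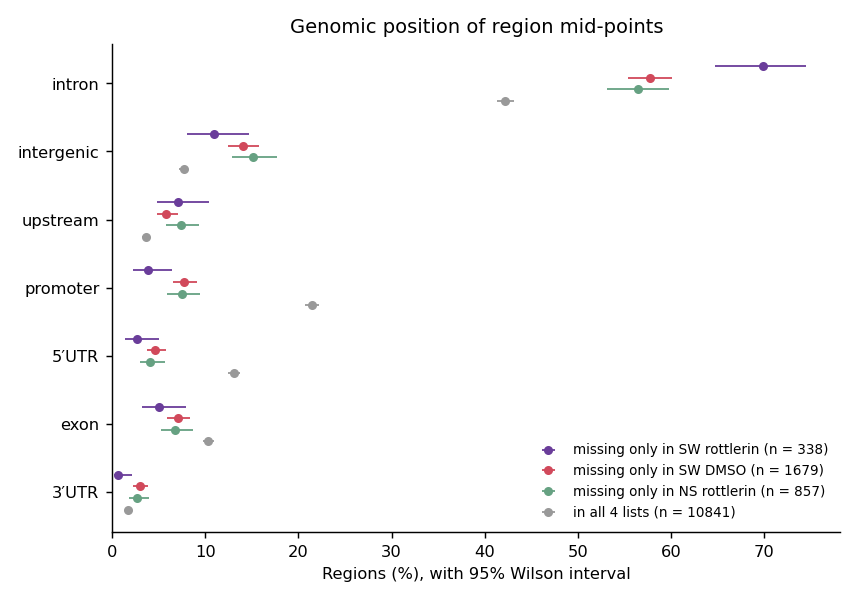
Share of region mid-points (horizontal axis, %, with 95% Wilson interval) in each kind of sequence (vertical axis) for the members, the regions missing only in another list and the regions in all 4 lists. Introns hold 69.8% of the members and 42.2% of the regions in all 4 lists, and promoters 3.85% and 21.4%.

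The members held few CpG, as did distal regions in general. The median GC content of the central 300 bp was 44%, and 190 members (56.2%, 50.9–61.4) had at most 3 CpG, against 46.6% of all merged regions and 22.9% of the regions in all 4 lists. CpG-island-like members numbered 26 (7.69%, 5.30–11.0), against 20.96% and 50.2%. The share was 3.51% in regions of the NS DMSO list alone. With the same number of highest-scoring peaks in every list, 14.8% of the members were CpG-island-like. Among distal members the share was 1.04% (0.355–3.02), against 3.95% of all distal regions and 10.3% of those in all 4 lists. The share of distal members with at most 3 CpG was 62.2% (56.4–67.6), within counting error of the 59.3% of all distal regions, and their median GC content was 43.2% against 43.7%.

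Motifs were sought as short words on both strands of the central 300 bp, and words of different families may share bases. RUNX words (TGTGGTT or TGCGGTT) were in 99 members (29.3%, 24.7–34.4), against 19.7% of all merged regions and 17.4% of regions in all 4 lists. The latter share depends on promoters, since in regions over 1 kb from a coding TSS it was 30.3% beside 31.2% (26.2–36.8) of the distal members and 23.5% of all distal regions. Distal comparisons are given from here on. ETS words (CCGGAA or CAGGAAG) were in 25.4% (20.7–30.7) of distal members, in 28.5% of distal regions in all 4 lists and in 25.0% of all distal regions. An ETS and a RUNX word together were found in 31 of 288 distal members (10.8%, 7.69–14.9), against 5.28% of all distal regions, 8.37% of those in all 4 lists, 7.99% of those missing only in SW DMSO and 5.20% of those missing only in NS rottlerin. MYB words (AACTGNC) were in 20.8% (16.5–25.9) of distal members, against 15.5% of all distal regions and of those in all 4 lists. They were in 16.74% of the distal regions missing only in NS rottlerin, within counting error of the members, and in 15.75% of those missing only in SW DMSO. Neither RUNX nor ETS was highest in the members, since RUNX words were in 34.6% of the distal regions missing only in NS rottlerin and ETS words in 31.5% of those missing only in SW DMSO.

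AP1, NFAT and EGR words, whose factors stimulation activates, were less frequent in the members than in all distal regions. The AP1 word (TGACTCA) was in 22 of 288 distal members (7.64%, 5.10–11.3), against 16.1% of all distal regions and 11.8% of those in all 4 lists. In the distal regions missing only in SW DMSO it was in 3.501%, and in those missing only in NS rottlerin in 9.67%. The share moved with the window: in the central 500 bp it was 12.8% (9.47–17.2) of distal members, 19.98% of all distal regions and 16.3% of those in all 4 lists. Over all members it was 6.81% in 300 bp and 11.8% in 500 bp, and 0 of the 16 members left with the higher-scoring 50% of the lists had the word. The NFAT word (TGGAAA) was in 20.1% (15.9–25.1) of distal members, against 31.5% of all distal regions, 26.6% of those in all 4 lists, 24.2% of those missing only in SW DMSO and 41.0% of those missing only in NS rottlerin. The EGR word (CGTGGGNG) was in 0.694% (0.191–2.50) of distal members against 3.09% of all distal regions. It was in 1.45% of distal regions missing only in SW DMSO, within counting error of the members, and in 3.61% of those missing only in NS rottlerin. At any distance from a TSS, regions of the NS DMSO list alone had EGR in 1.16% and AP1 in 2.67%, beside 1.18% and 6.81% of all members. Of all 40703 merged regions, 18920 had an NS DMSO peak, which every member has. NFκB matches were in 2.78% (1.41–5.38) of distal members against 3.69% of all distal regions, a difference within counting error. GATA words (AGATAA or TGATAA) were in 31.9% (26.8–37.5) of distal members against 38.3% of all distal regions, 33.9% of those in all 4 lists, 45.1% of those missing only in SW DMSO and 30.3% of those missing only in NS rottlerin.

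E-box words are bound by bHLH factors such as the E proteins. The word CACCTG was in 25.0% (20.4–30.3) of distal members against 22.03% of all distal regions. CAGCTG was in 18.4% against 17.6%, and the share with CATCTG was 25.4% against 24.9%, so none of the 3 differed beyond counting error. In regions of the NS DMSO list alone, at any distance from a TSS, CACCTG was in 39.8%, above the 26.0% (21.7–31.0) of all members. Members with CACCTG had a median NS DMSO score of 54 and those without it 46.5. Medians with and without the words were 53 and 47 for RUNX and 52 and 48 for MYB. They went the other way for ETS (47 and 48), GATA (45 and 48.5), NFAT (43.5 and 48.5) and AP1 (44 and 48). The rule used this list, so these medians are a description. The GGGCGG word of the SP and KLF families was in 5.90% (3.72–9.25) of distal members against 9.39% of all distal regions. TCF/LEF words (CTTTGAT or CTTTGTT) were in 13.2% against 16.8%, the NFY word (CCAAT) in 30.9% against 30.3%, and CTCF matches in 2.43% against 2.91%. The CRE word (TGACGTCA) and the NRF1 word (GCGCNTGCG) were in 0 of 288 distal members, which allows shares of up to 1.32%, against 0.403% and 0.581% of all distal regions. A match is a description of the letters and does not show that a factor bound there.

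**Figure D5:**
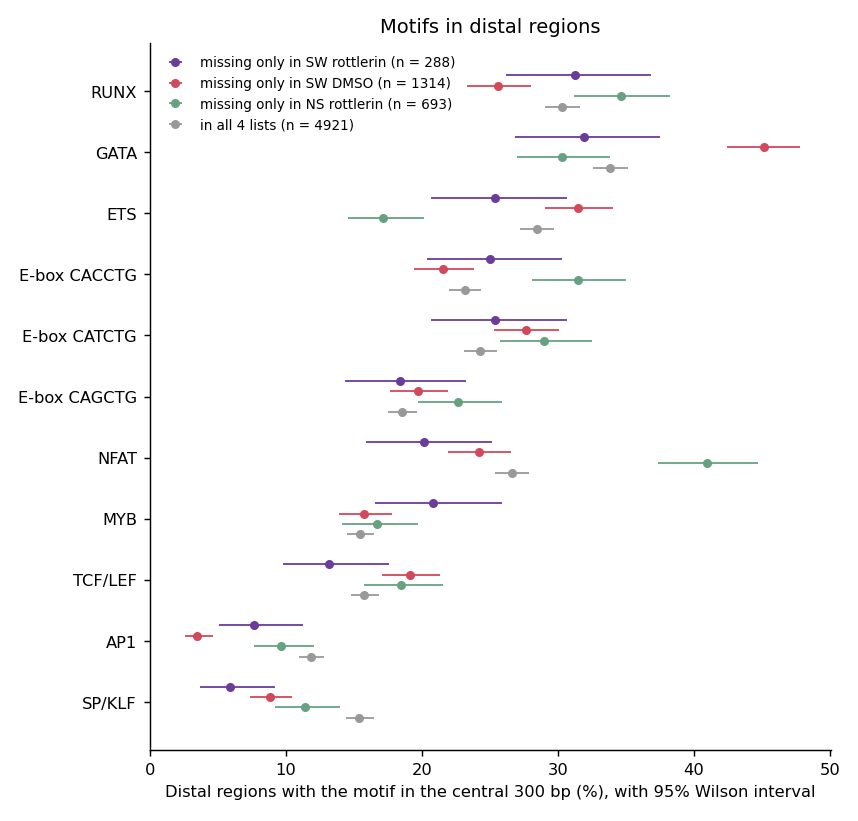
Share of regions over 1 kb from a coding TSS that hold each motif in their central 300 bp (horizontal axis, %, with 95% Wilson interval), for the members, the regions missing only in another list and the regions in all 4 lists. The members stand at 7.64% for AP1 and 20.1% for NFAT, and at 31.2% for RUNX beside 30.3% of the regions in all 4 lists.

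Genes near the members were counted for 6 lists of T cell and stimulation genes. Of 12298 coding genes with a region of the 3 lists within 50 kb of a TSS, 436 (3.55%) had a member there. Of 20 such genes of T cell receptor signalling 2 had a member, of 20 cytokines, receptors and surface proteins 2, of 20 apoptosis and cell cycle genes 2, and of 17 NFAT, NFκB and protein kinase C genes 1. None was found within 50 kb at 29 leukaemia and T lineage factors or at 24 immediate early genes. Beyond that distance, members were named by RUNX1 (79058 bp from a TSS) and TOX (67294 bp), both on the list of leukaemia and T lineage factors. With 7 genes in all, the counts were too few to set a list apart from the background of 3.55%.

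On the list of T cell receptor signalling, the genes with a member were CD2, an adhesion receptor that binds CD58, and FYN, a Src family kinase. The member 16.7 kb upstream of CD2 had scores of 48, 17 and 51 in the NS DMSO, SW DMSO and NS rottlerin lists, low in SW DMSO. The member in an intron of FYN had 39, 47 and 17, low in NS rottlerin. Among surface proteins, CD40LG, the ligand through which T cells help B cells, had a member 46.6 kb downstream, in an intron of ARHGEF6, with 16, 38 and 18, and CXCR5 had the member given above. The member in an intron of PRKCH, which encodes the eta isoform of protein kinase C, had 25, 35 and 28, and was weak in all lists. At 49.2 kb from CDKN1A, the gene of the cell cycle inhibitor p21, a member in an intron of RAB44 had 59, 88 and 56, highest in SW DMSO. The CCND3 member given above, 38.2 kb downstream of the TSS, had the widest spread of the 7, with NS DMSO highest. No list was highest or lowest at all of them. The other end of the range was held by members of CELF2, an RNA-binding splicing factor gene (14, 12 and 12), EBLN1 (13, 16 and 15) and PTPRC (14, 18 and 14). PTPRC, the gene of CD45, is only the nearest coding gene to that last member, 404 kb away.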

How the data were processed

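FAIRE-seq peak lists of 4 Jurkat libraries were used, 1 per label. Per the labels and the methods, the authors processed reads with cutadapt, Bowtie2 (hg19), Picard and MACS2 (broad peaks against the total input). The labels also name HTSeq, where the methods give R for counting reads, and no read counts were used here. Tool versions are not given in the sources used here. The deposited lists give, as the authors made them, a score, a ratio (the fold enrichment) and p and q values as −log10. Read depth is unknown, and the score of all 93353 peaks was 10 times the −log10 of q without decimals, within 1.

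Peaks on the autosomes, X and Y were merged where they overlapped by 1 bp or touched, and a region took the highest-scoring peak of each list. No peak ran past the end of a GRCh37 chromosome. Mid-points were placed, in order, in 5′UTR, 3′UTR, exon, intron, promoter (1000 bp before a TSS), upstream (to 10000 bp) or intergenic sequence by GENCODE release 44 on GRCh37. A region is named by the nearest TSS of a coding gene. Fold ratios past 1.5 were counted. No test between lists and no p-value was possible with 1 library per label.

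The members and lists were chosen with earlier results of these data known. Named are the 10 members with the highest lowest score over the 3 lists, the 8 such promoter members, up to 10 such members within 50 kb of a listed gene and the 3 with the lowest highest score. Steps were tested on simulated data. The tools were samtools 1.23.1, pysam 0.24.0, scipy 1.17.1, matplotlib 3.10.9, pandas 2.3.3 and numpy 2.4.6 under Python 3.11.15. Some items are not reported here. Alternatives used other peak sets, windows and orders of placement.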

Additional observations from a re-analysis of the deposited data

How the results depend on the processing

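No paired analysis was possible because each label has 1 library, and for the same reason no replicate could be left out. Depth is unknown, which limits every statement that a peak is missing. Of 50 values under alternatives, over 10 results, 31 stayed within the interval or within 1.5 times the main count, and 19 moved. The causes were not tested, beyond the smaller number of peaks that some alternatives use.

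With the 18977 highest-scoring peaks of every list, the members numbered 849. Of these 72.2% lay in introns or intergenic sequence, 21.3% lay within 1 kb of a coding TSS, 14.8% were CpG-island-like, 5.54% had a fold enrichment in SW DMSO past 1.5-fold from NS DMSO, and the median distance to an SW rottlerin peak was 23877 bp. With the higher-scoring 50% of the 3 lists, 16 members were left, with a median NS DMSO score of 81. Of these 93.8% lay in introns or intergenic sequence and 6.25% near a TSS, with AP1 in 0, ETS in 31.3% and CACCTG in 37.5%. With promoters placed first, introns and intergenic sequence held 70.4% of members. In the central 500 bp the shares were 11.8% for AP1, 34.02% for ETS and 35.8% for CACCTG. Chosen after seeing the data, leaving the NS rottlerin list unused gave 855 members, and leaving the SW DMSO list unused gave 1179.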

Other observations

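The members were spread over 329 different nearest coding genes, of which 321 had 1 member and 8 had more. PTPRC was nearest to 3 members, and FOXN3, IGFBP2, NEK10, PAG1, RAD21 and WWOX were among those nearest to 2. Within 100 kb of each other lay 10 pairs of members, and no larger cluster was found. These genes and pairs were picked out after their values were seen, and the distances were not tested.

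At STAT4, a transcription factor of interleukin signalling, a member in an intron 2.02 kb downstream of the TSS had scores of 60, 58 and 27 in the NS DMSO, SW DMSO and NS rottlerin lists. In introns of PAG1, an adaptor that anchors the kinase Csk at the membrane, the scores were 54, 50 and 67 at 31.5 kb from the TSS and 73, 39 and 47 at 5.06 kb. Upstream of RAD21, a cohesin subunit gene, they were 121, 48 and 35 at 5.53 kb and 45, 62 and 60 at 27.8 kb. An intron of NCK1, an adaptor of T cell receptor signalling, held a member with 35, 22 and 58, and a member in the promoter of ISG20, an interferon-induced exonuclease gene, had 35, 34 and 44. The members of a pair at PAG1 and at RAD21 did not share an order of the lists.

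By chromosome, the share of regions of the 3 lists without an SW rottlerin peak was highest on chromosome 13 (14 of 271, 5.17%). Chromosome 8 was close to it (22 of 429, 5.13%). The share was lowest, among those with over 100 such regions, on chromosome 19 (4 of 718, 0.557%). Over all chromosomes it was 3.02%. Differences between chromosomes were not tested.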
